A study of Rattus norvegicus with 24 samples.

Results

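The zinc finger protein genes described here were the genes on the first 140000000 bases of rat chromosome 1 (Rnor6) whose symbol in the study's annotation begins with Zfp or Znf, with Zfp36 set aside, and which reached at least 1 CPM (counts scaled to a common library total) in at least 6 of the 23 rats used. There were 40 such symbols and all 40 passed the filter on low counts, of 13838 genes tested and 32883 genes in the count table. Genes with such a name only in an older release of that annotation (Zfp874b, Zfp53, Zfp40, Zfp128, Zfp780b and 2 called Zfp446, none with a symbol in the release used) were not counted and are given with the other zinc finger genes. The rule used names, positions and abundance, and no difference between groups, but it was chosen with earlier results of these data known.

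Zinc finger proteins of the C2H2 type bind DNA through arrays of small zinc-holding loops and form the largest family of transcription factors in mammals. Many of them carry a KRAB domain, which recruits the corepressor Trim28 (KAP1) and through it the machinery that lays down repressive histone marks, and many KRAB members silence transposable elements. The family grew by tandem duplication, so its genes lie in clusters of related neighbours.

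Whole hippocampus came from adult rats of generation 37 of a pair of lines bred at the University of Michigan for their locomotor response to a new environment. The bred high responder (bHR) rats had total locomotor scores of 1533 to 2949 and the bred low responder (bLR) rats scores of 23 to 101, and neither line received a drug or carried an engineered allele. Each line gave 12 rats (6 males and 6 females), and 1 bHR female with an RNA integrity number of 6.3 was left out, leaving 11 bHRs and 12 bLRs. Per the labels, males were 151 to 165 days old and females 187 to 192 days old, above the age range that the study's methods give, and the sexes were dissected on separate days, so sex, age and dissection day cannot be told apart. The labels place a male and a female in each of 12 family codes, 6 per line, whereas the methods speak of separate families for all rats. Selection and drift both separate such lines, so a line difference is a difference between these breeding populations.

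The libraries were poly-A selected and held 16824899 to 28443049 counts in genes, so that 3 counts corresponded to 0.105 to 0.178 CPM. Mean depth, to the nearest 100, was 23903200 counts in bHRs and 21126200 in bLRs. The share of ribosomal RNA (%rRNA) ran from 1.23 to 3.98% and averaged 2.25 ± 0.690% in bHRs (SD, n = 11) and 2.41 ± 0.849% in bLRs (SD, n = 12), and the share of intergenic bases (%intergenic) averaged 9.83 ± 1.35% and 10.7 ± 1.09%. The RNA integrity number averaged 9.59 ± 0.164 in bHRs and 9.32 ± 0.365 in bLRs, and its part in the line comparison was not tested. Factors of the trimmed mean of M-values (TMM) normalization ran from 0.689 to 1.345. Identifiers were paired with symbols only for part of chromosome 1, so that 2 of the 14 cell type markers listed for the tissue check were looked at: Slc17a7, the vesicular glutamate transporter of hippocampal excitatory neurons, stood at 160 to 1094 CPM, and Folr1, a choroid plexus folate receptor, at 2.39 to 55.2 CPM. The other 12, striatal markers among them, were not analysed here.

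The members fell into 10 position clusters when a new cluster was begun wherever the next start lay more than 1 Mb past the last one, and into 8 with a gap of 2 Mb. Cluster 1 (61.31 to 61.53 Mb, 3 members) held Zfp54, Zfp52 and Zfp51. Cluster 2 (65.61 to 66.9 Mb, 5 members) held Zfp324, Zfp110, Zfp329, Zfp606 and Zfp551. Cluster 3 (69.62 to 69.86 Mb, 4 members) held Zfp418, Zfp772, Zfp773-ps1 and Zfp954. Cluster 4 (71.17 to 72.47 Mb) was the most populous, with 11 members from Zfp28 to Zfp628, and cluster 5 (80.92 to 82.1 Mb) ran over 8 members from Zfp180 to Zfp526. Cluster 7 (87.65 to 88.61 Mb) held Zfp84, Zfp420, Zfp260 and Zfp382, and cluster 10 (98.63 to 99.54 Mb) held Zfp17 and Zfp819. Zfp780b-ps1 at 84.88 Mb, Zfp507 at 92.09 Mb and Zfp536 at 93.85 Mb each stood alone.

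Mean levels, as TMM-normalised CPM over the 23 rats, ran from 1.14 for Zfp819 to 68.2 for Zfp954, with a median of 5.57. In every rat 30 of the 40 reached 1 CPM, and Zfp526 did so in the fewest rats, 11. No exon lengths were used here, so these values rank counts and not transcripts per length. Summed over the members, the level was 425.9 to 546.9 CPM in bHRs (median 479.5) and 421.5 to 475.4 CPM in bLRs (median 440.7), and the ranges of the lines overlapped. Zfp420 lies within the span of Zfp84 on the same strand, Zfp324 within that of a neighbouring zinc finger gene once named Zfp446, and one end of Zfp507 lies over an unnamed gene on its strand. Reads of these genes, of the pseudogene-named Zfp773-ps1 and Zfp780b-ps1 and of the near relatives Zfp51, Zfp52 and Zfp54 may be shared or lost where only unique hits were counted, so their levels are uncertain.

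RefSeq promoters (GRCr8, 250 bases before to 50 after the annotated start, 1 per gene) were matched for 38 of the 40 members and are described here by base composition and short words. The RefSeq entries matched to Zfp51 and Zfp17 are named Zfp51l1 and Zfp715, so these promoters may not be those of the members. Median GC content was 56.3% against 52.3% over all 27457 promoters, and the ratio of observed to expected CpG was 0.677 against 0.417. The word ACTACA, the first part of the element bound by ZNF143 and THAP11, stood on either strand in 12 of the 38 promoters (31.6%) against 10.9% of all promoters. TGCGCA, the core of the NRF1 element and identical on both strands, stood in 13 (34.2%) against 7.68%, and GCATGCGC, which overlaps it in part, in 6 (15.8%) against 2.66%. CCGGAAG, an ETS-type word, was in 7 (18.4%, all promoters 9.22%), CCAAT in 13 (34.2%, all promoters 37.7%) and GGGCGG, the GC box, in 17 (44.7%, all promoters 34.9%). TGACGT was in 1 (2.63%, all promoters 8.22%) and CACGTG in 3 (7.89%, all promoters 6.65%). These are matches of letters on both strands, and duplicated neighbours share them by descent, so the promoters are not independent.

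The ACTACA windows of 3 neighbours in cluster 3 are shown because the word stands in similar sequence in genes that also rose with %rRNA under TMM scaling. They are followed by that of Zfp551, the member with the lowest p between the lines. The capitals mark ACTACA and each window is written 5′ to 3′ on the gene's strand in GRCr8. The windows lie at chr1:75742554-75742583 (minus strand) for Zfp772, chr1:75797150-75797179 (plus) for Zfp773-ps1, chr1:75809279-75809308 (plus) for Zfp954 and chr1:81626265-81626294 (minus) for Zfp551.
Zfp772: gatcctgtctgaACTACAttgtccagaaga
Zfp773-ps1: cacgctgtctgaACTACAttacccagaatg
Zfp954: gatcctgtctgaACTACAttgcccagaaaa
Zfp551: ggagtgatggaaACTACAtttcccgggatg
Aligned at the word with no gap, Zfp772 and Zfp954 shared 28 of 30 letters, Zfp773-ps1 and Zfp954 shared 24, and Zfp772 and Zfp773-ps1 shared 23. Zfp551 shared 15 to 18 letters with these 3, 6 of them being the word itself. The word ended 86 bases before the annotated start in Zfp772, 54 in Zfp773-ps1, 105 in Zfp954 and 44 in Zfp551.

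Between the lines, Zfp551 (ENSRNOG00000047230, chr1:66898946-66904539 in Rnor6, plus strand) was higher in bHRs and no other member passed the test. The fit was edgeR's quasi-likelihood test on the counts with terms for lineage, sex, %rRNA and %intergenic, and Log2FC is bLR versus bHR, so values below 0 are higher in bHRs. Passing meant a false discovery rate (FDR, Benjamini-Hochberg over all 13838 genes) under 0.10. Thus 1 of 40 members passed (2.5%), against 1.34% of all genes tested. It was higher in bHRs, as were 0.564% of all genes, and 0 members were higher in bLRs by this test, as were 0.773% of all genes (1 member at an unadjusted p under 0.05). A count of 1 sets nothing apart from the background. In a whole-tissue sample, fewer cells that make an RNA and less of it per cell cannot be told apart.

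Zfp551 ran from 6.26 to 17.0 CPM in bHRs (median 10.4, n = 11) and from 6.06 to 11.4 CPM in bLRs (median 8.78, n = 12). The lines overlapped from 6.26 to 11.4 CPM, and the 4 highest rats were all bHRs: the male and female of family H02 at 16.0 and 17.0, the H11 female at 12.9 and the H08 male at 12.2. The Log2FC was -0.37 (SE 0.10, p = 0.00133, edgeR FDR = 0.0996), or 0.772 of the bHR level. In males alone the Log2FC was -0.37 (SE 0.14) and in females alone -0.40 (SE 0.18), with no gene-wide FDR under 0.10 in either (0.257 and 0.9999). The call stood at the threshold: leaving out any of 19 of the 23 rats ended it, with a Log2FC of -0.39 to -0.32 and an FDR of 0.108 to 0.240 in those fits. It held without the L01 female, the H05 male, the L06 male or the H12 female, with a Log2FC of -0.44 to -0.39 and an FDR of 0.0453 to 0.0925. Leaving out both rats of family H02 was not tried. DESeq2 (FDR = 0.0143) and limma-voom (FDR = 0.0640) both called it, whereas 9 of the 14 settings tried beside leaving out a rat ended it. Among the 9 were all 24 rats (edgeR FDR = 0.218), library size alone (0.231), %rRNA as the only technical covariate (0.268), RNA concentration in its place (0.507) and no filter (0.117).

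**Figure D1:**
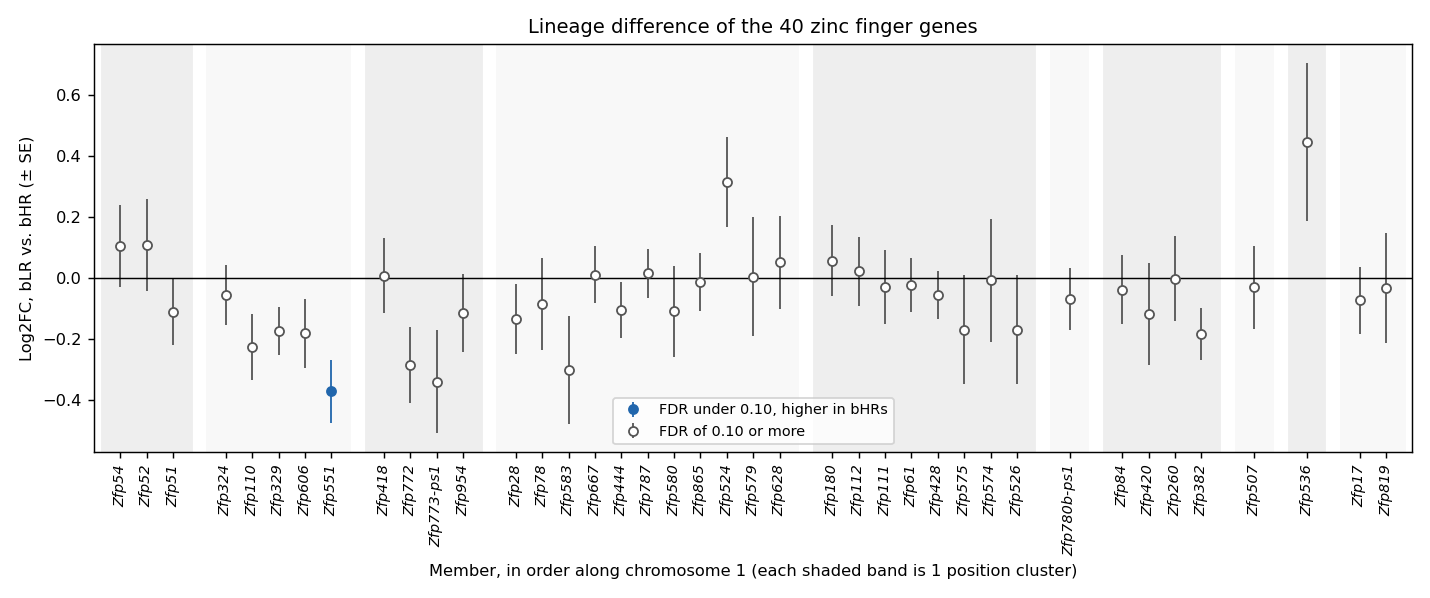
Log2FC of each member for bLR versus bHR (vertical axis, log2 units; points with SE bars) in order along chromosome 1, with each shaded band a position cluster. Zfp551 at -0.37 is the single filled point, and all 5 members of cluster 2 lie below 0.

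Most members had a Log2FC below 0 without passing. Below 0 stood 29 of the 40, and 51% of all genes did so. The median was -0.06 among members and -0.00 among all genes. It was -0.11 among members (all genes -0.03) with no technical covariates and -0.09 (all genes -0.01) with %rRNA as the only one. At an unadjusted p under 0.05, 6 members stood (15%, all genes 9.96%), 5 of them higher in bHRs (12.5%, all genes 4.23%) and 1 higher in bLRs (2.5%, all genes 5.72%). The count of 6 fell to 3 (7.5%) without any one of 7 rats (the H02, H04, H11, L07, L09 and L10 males and the H08 female), with library size alone and with RNA concentration in place of %rRNA. The share of all genes at that level was not computed for those fits. Members share libraries and normalization and are not replicates, so these counts are a description. Not one of the 40 had lines that did not overlap in CPM, as against 5 genes (0.0361%) in the whole table. SEs ran from 0.08 to 0.26, with a median of 0.12 on the log2 scale.

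By position, cluster 2, singled out of 10 after the values were seen, held 3 of the 6 members at p under 0.05, a level reached by 9.96% of all genes. Its median Log2FC was -0.18 over its 5 members. That count of 3 was 1 without the H04, H11, L07 or L09 male and 1 with RNA concentration in place of %rRNA. Zfp329 ran from 16.5 to 22.7 CPM in bHRs (median 20.6) and from 14.0 to 20.8 CPM in bLRs (median 16.9). Its lowest bHR male, at 19.8, was above all 6 bLR males, whose highest was 19.2, whereas the females overlapped. It was the 1 member of 40 (2.5%) whose lines did not overlap in males, against 0.448% of all genes, and was singled out after its values were seen. Its Log2FC was -0.17 (SE 0.08, p = 0.0363, edgeR FDR = 0.450), -0.31 in males alone (SE 0.09, edgeR p = 0.00463) and 0.08 in females alone (SE 0.14). Zfp110, known as Nrif, a partner of the p75 neurotrophin receptor, had a median of 12.5 CPM in bHRs (6.71 to 19.9) and 12.1 CPM in bLRs (7.36 to 15.8), with a Log2FC of -0.23 (SE 0.11, edgeR FDR = 0.486). Its male medians were 12.7 CPM in bHRs and 9.23 CPM in bLRs, and its female medians 12.5 and 12.9 CPM. Zfp606 stood at -0.18 (SE 0.11) and Zfp324 at -0.06 (SE 0.10).

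In cluster 3, 3 of 4 members lay below 0 (median -0.20) and none passed. Zfp772 ran from 2.00 to 8.10 CPM in bHRs (median 4.56) and from 2.40 to 4.62 CPM in bLRs (median 3.10), with a Log2FC of -0.29 (SE 0.13, edgeR FDR = 0.424). Zfp773-ps1, whose promoter window resembles that of Zfp772, stood at -0.34 (SE 0.17, edgeR FDR = 0.514) on medians of 3.02 and 2.04 CPM. Zfp954, the most abundant member, stood at -0.11 (SE 0.13) and Zfp418 at 0.01 (SE 0.12).

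The larger clusters 4 and 5 showed medians near 0. In cluster 4, 6 of 11 lay below 0 (median -0.01), in cluster 5, 6 of 8 (median -0.03), and cluster 1 had a median of 0.10 with 2 of 3 above 0. Zfp54, its most abundant member, ran from 2.50 to 18.3 CPM in bHRs (median 8.67) and from 3.27 to 19.8 CPM in bLRs (median 7.32), with a Log2FC of 0.10 (SE 0.13). Zfp524, whose human counterpart binds telomeric repeats, had the lowest p of the members above 0: it ran from 2.17 to 4.12 CPM in bHRs (median 3.13) and from 3.03 to 6.97 CPM in bLRs (median 3.53), with a Log2FC of 0.31 (SE 0.15, edgeR p = 0.0444, edgeR FDR = 0.480). Its bLR females, at 3.29 to 6.97 CPM, all stood above the bHR females, at 2.42 to 3.26, and the males overlapped. It was the 1 member of 40 without overlap in females (2.5%, all genes 0.419%), also singled out afterwards. Zfp583, a low member with a mean of 1.44 CPM, stood at -0.30 (SE 0.18). Zfp667 (Mipu1), Zfp579 and Zfp444, a SCAN-domain member, stood at 0.01 (SE 0.09), 0.00 (SE 0.20) and -0.11 (SE 0.09). In cluster 5, Zfp180, the second most abundant member at 55.7 CPM on average, stood at 0.06 (SE 0.12), an interval of 2 SE from -0.18 to 0.29.

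All 4 members of cluster 7 lay below 0 (median -0.08), and none passed. Zfp382, a KRAB repressor also called KS1, ran from 10.9 to 16.0 CPM in bHRs (median 13.5) and from 8.51 to 14.6 CPM in bLRs (median 11.0), with a Log2FC of -0.18 (SE 0.08, edgeR FDR = 0.464). Zfp260, a partner of GATA4 in heart muscle, stood at -0.00 (SE 0.14). The widest line difference was that of Zfp536, a repressor of retinoic acid-driven neuronal differentiation, at 0.45 (SE 0.26, edgeR p = 0.0991, edgeR FDR = 0.615). It ran from 0.759 to 2.75 CPM in bHRs (median 1.84) and from 0.686 to 6.72 CPM in bLRs (median 3.08), and the spread among the bLRs was as wide as the difference. Its fitted value was 0.51 in males (SE 0.26) and -0.41 in females (SE 0.42), although the female medians were 3.85 CPM in bLRs and 1.90 CPM in bHRs. It ran from 0.10 to 0.66 as each rat was left out in turn. The lines overlapped in the other members that lead a cluster. Zfp780b-ps1 ran from 6.34 to 11.7 CPM in bHRs and from 5.49 to 11.8 CPM in bLRs (Log2FC -0.07, SE 0.10), Zfp507 from 2.78 to 6.53 CPM and from 3.14 to 7.28 CPM (-0.03, SE 0.14), and Zfp17 from 17.2 to 38.3 CPM and from 12.3 to 31.4 CPM (-0.07, SE 0.11).

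**Figure D2:**
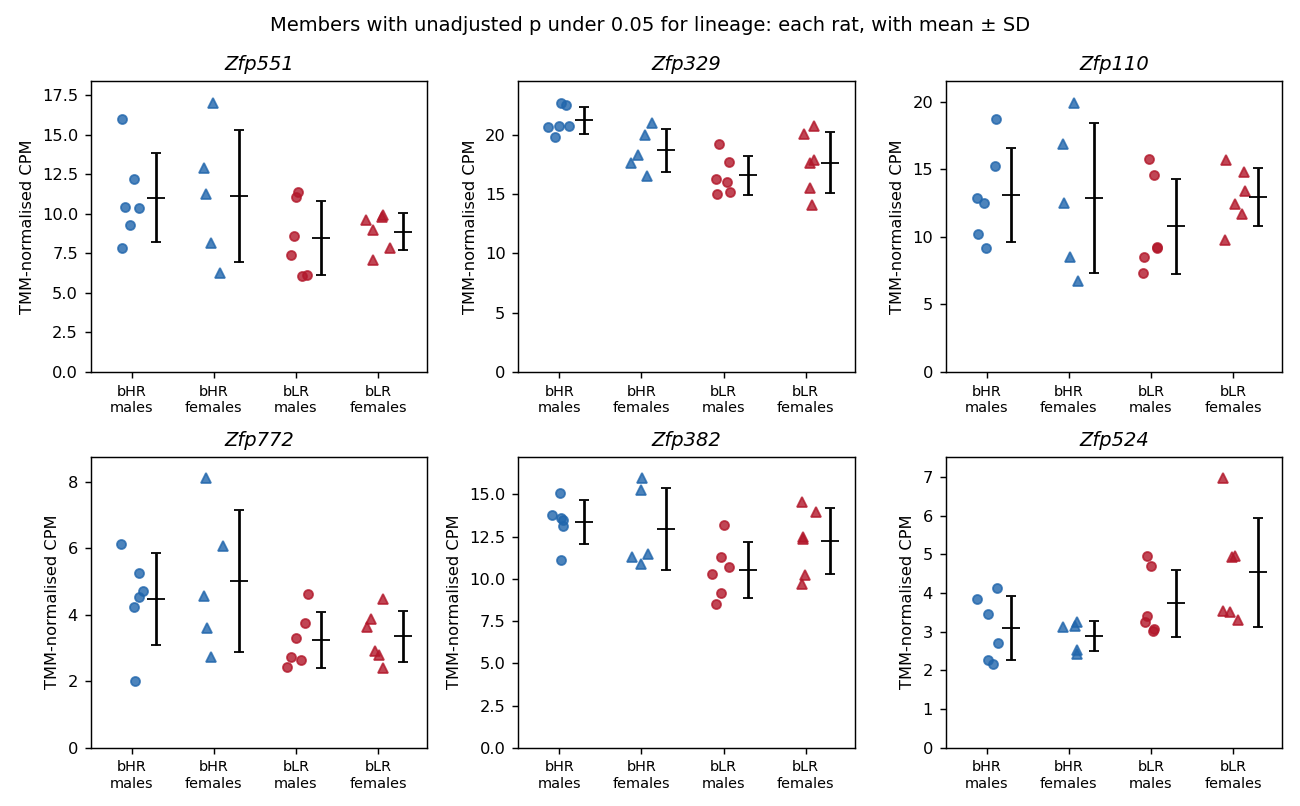
TMM-normalised CPM (vertical axis, from 0) of the 6 members with an unadjusted p under 0.05 for lineage, 1 point per rat (circles males, triangles females; blue bHR, red bLR), with the mean and SD of each group of 5 or 6 rats beside it. The 6 bHR males of Zfp329 sit at 19.8 to 22.7 CPM above the 6 bLR males (0.448% of all genes do not overlap in males), and the other panels overlap in males.

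In males members lay below 0 more often than all genes did, in females about as often, and no difference between the sexes was shown. Below 0 in males were 32 of 40 (all genes 53.3%) with a median of -0.11 (all genes -0.02). In females 21 were (all genes 48.2%) with a median of -0.02 (all genes 0.01), and 16 were in both (40%, all genes 25%). Unadjusted p was under 0.05 for 5 members in males, where 15.3% of all genes were, and for 1 in females, where 4.8% were. The interaction of lineage and sex, fitted with %rRNA, passed for 0 of 40 members by edgeR (background 0%), with 0 at an unadjusted p under 0.05 and 325 of all genes (2.35%). limma-voom gave 1 member at an unadjusted p under 0.05 (2.5%, all genes 2.25%), DESeq2 0 (all genes 2.5%), and edgeR with %intergenic added 2 (5%, all genes 8.26%). The smallest interaction p was that of Zfp111 (0.0538, edgeR FDR = 0.9999), with a Log2FC of -0.20 in males (SE 0.14) and 0.31 in females (SE 0.18). By cluster, the male and female medians were -0.29 and -0.22 in cluster 2, -0.14 and -0.14 in cluster 3, -0.15 and 0.04 in cluster 5 and -0.19 and 0.06 in cluster 7.

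Between the sexes themselves 0 of 40 members passed by edgeR (background 0.354%), and the smallest FDR was 0.406. Zfp580 (Log2FC -0.32 for female versus male) and Zfp428 (-0.16) stood at an unadjusted p under 0.05, against 11.2% of all genes. limma-voom also gave 2 (all genes 12.4%) and DESeq2 0 (all genes 11.6%) at that level.

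The technical measure %rRNA, in contrast, went with the level of most members, as it did with most genes. By edgeR 31 of 40 members (77.5%) passed at FDR under 0.10, against 76.4% of all genes tested, so the share of members was that of the background. Rising with %rRNA were 15 members (37.5%, all genes 36.2%) and falling were 16 (40%, all genes 40.2%). The slope is the log2 change per percentage point of %rRNA, and its median was -0.03 among members and -0.02 among all genes. The 9 that did not pass were Zfp52, Zfp329, Zfp606, Zfp667, Zfp524, Zfp112, Zfp507, Zfp536 and Zfp819, and among these Zfp329 and Zfp524 had an unadjusted p under 0.05 for lineage.

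**Figure D3:**
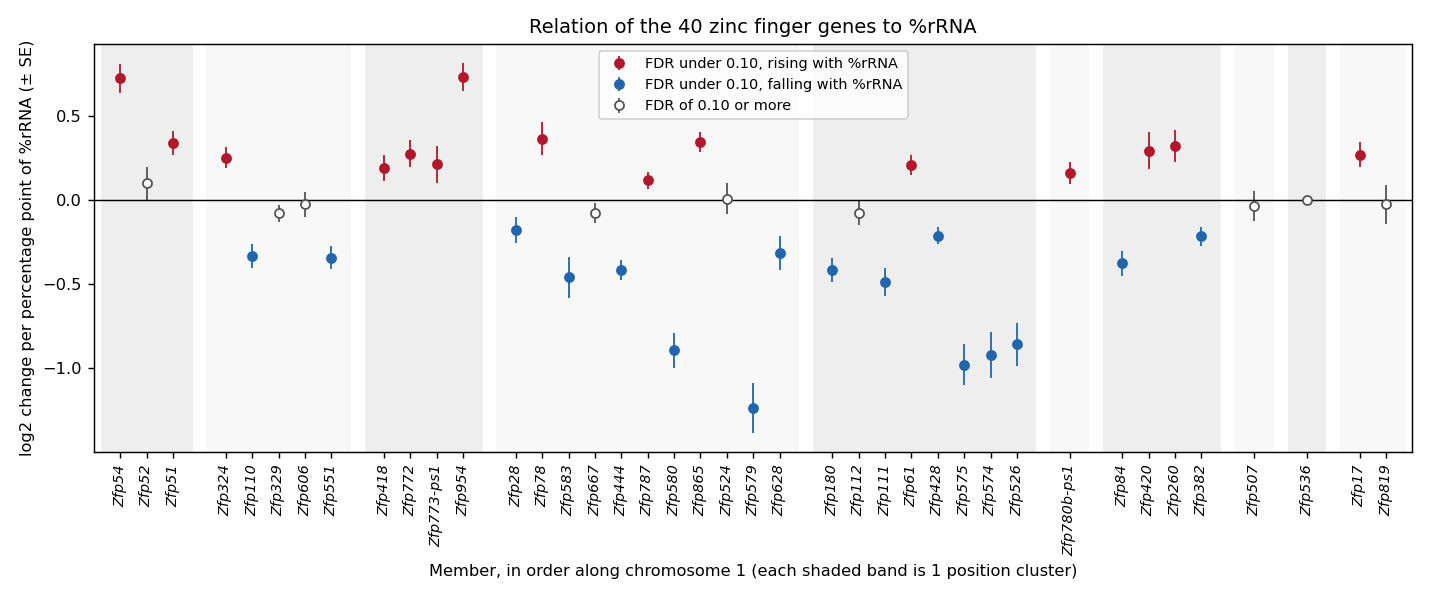
Change in log2 level per percentage point of %rRNA (vertical axis; points with SE bars) for each member in order along chromosome 1, red where rising and blue where falling at FDR under 0.10. With TMM scaling all of clusters 1 and 3 lie above 0 (with library size alone Zfp52, Zfp418, Zfp772 and Zfp773-ps1 lay below 0), Zfp579 at -1.24 and Zfp575 at -0.98 lie lowest, and Zfp536 has no bar because its slope was too near 0 for an SE to be formed from the test.

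By position, all 3 members of cluster 1 and all 4 of cluster 3 had slopes above 0 with TMM scaling, 2 and 4 of them passing, whereas with library size alone those of Zfp52, Zfp418, Zfp772 and Zfp773-ps1 lay below 0. In cluster 5, 7 of 8 lay below 0, 6 passing and Zfp61 alone rising, and in cluster 4, 6 fell and 3 rose of 11. Cluster 2 had 1 rising and 2 falling, and cluster 7 had 2 of each. Neighbours could run in opposite directions: in cluster 7, Zfp84 fell (-0.38, SE 0.07) while Zfp420, which lies inside its span, rose (0.29, SE 0.11) with TMM scaling and had a slope of -0.01 with library size alone. No test across clusters was made.

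Zfp954 and Zfp54 rose most. Zfp954 stood at 22.2 to 29.6 CPM in the 4 rats with the lowest %rRNA (1.23 to 1.45%, all females, 2 of each line) and at 69.2 to 143 CPM in the 4 with the highest (3.09 to 3.98%, 2 of them females and 1 of them a bHR). The slope was 0.73 (SE 0.08, edgeR FDR = 7.47e-08). Zfp54 stood at 3.27 to 4.93 CPM and 7.48 to 19.8 CPM in the same rats, with a slope of 0.72 (SE 0.09, edgeR FDR = 1.15e-07). The span of Zfp954 across rats, from 22.2 to 143 CPM, was thus found in both lines, from 26.6 to 143 in bHRs and 22.2 to 120 in bLRs. The other members of their clusters that rose had smaller slopes: Zfp51 0.34 (SE 0.07), Zfp772 0.27 (SE 0.08), Zfp773-ps1 0.21 (SE 0.11) and Zfp418 0.19 (SE 0.08).

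The steepest falls were those of low members in clusters 4 and 5. Zfp579 stood at 2.63 to 4.36 CPM in the 4 rats with the lowest %rRNA and at 0.144 to 0.865 CPM in the 4 with the highest, where its lowest library, the L07 male, held 2 counts. Its slope was -1.24 (SE 0.15, edgeR FDR = 1.25e-07). Zfp575 went from 4.21 to 5.92 CPM down to 0.289 to 1.42 CPM, with a slope of -0.98 (SE 0.12, edgeR FDR = 2.16e-07). Zfp580 went from 7.92 to 10.6 CPM down to 1.44 to 2.47 CPM, with a slope of -0.90 (SE 0.10, edgeR FDR = 6.11e-08). In all 3, as in Zfp574 (-0.92, SE 0.14) and Zfp526 (-0.86, SE 0.13), the ranges at the ends of %rRNA did not overlap, as was so for 25 of the 40 members (62.5%) and 61.4% of all genes. Among abundant members, Zfp444 fell from 26.4 to 29.5 CPM down to 10.5 to 15.9 CPM (slope -0.42, SE 0.06, edgeR FDR = 1.85e-06), and Zfp180 had a slope of -0.42 (SE 0.07).

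The member with the line difference was itself among those falling. Zfp551 had a slope of -0.34 (SE 0.07, edgeR FDR = 0.000103), and it stood at 8.97 to 17.0 CPM at the lowest %rRNA and 6.06 to 7.42 CPM at the highest. Of the 4 rats with the lowest %rRNA, the bHR females H02 and H11 are among those with the highest Zfp551. Without the covariates its Log2FC by lineage was -0.36 (SE 0.16, edgeR FDR = 0.387).

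Because the rising and falling members were called on these rats, their signs within parts of the rats are a description. The sign was the same in all 4 groups of line and sex for 13 of the 15 rising (all rising genes 79.5%) and all 16 falling members (all falling genes 82.6%), the others being Zfp61 (opposite in bLR males) and Zfp418 (opposite in both groups of bHRs). With the mean of each group of line and sex taken off, Pearson's r with %rRNA over the 23 rats was -0.900 for Zfp580 (Spearman's rho -0.923; permutation p = 1e-05 for each, the smallest that 100000 permutations can give). It was -0.846 for Zfp575 (rho -0.847, permutation p = 1e-05 and 4e-05), -0.845 for Zfp444 (rho -0.883, permutation p = 2e-05 and 3e-05) and -0.825 for Zfp579 (rho -0.858, permutation p = 2e-05 and 1e-05). Rising members gave 0.757 for Zfp954 (rho 0.761, permutation p = 0.00012 and 8e-05) and 0.682 for Zfp54 (rho 0.757, permutation p = 0.00033 and 5e-05). The test was two-sided, 40 members were computed, and no adjustment over the list is given since the FDR above is over all genes. Without the 2 rats farthest from the median (the L10 female and L07 male) r was -0.867, -0.819, -0.752, -0.825, 0.777 and 0.725 in the same order. For Zfp418, counted among the rising, r was 0.474 (rho 0.347, permutation p = 0.0461 and 0.139, adjusted 0.0635 and 0.173). Without those 2 rats r was 0.0828, so its relation rests on them. For Zfp28, counted among the falling, r went from -0.510 (rho -0.370, permutation p = 0.0194 and 0.0921, adjusted 0.0338 and 0.123) to -0.229 without them. RNA concentration ran against %rRNA, and its r was 0.715 for Zfp580 and -0.823 for Zfp954.

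**Figure D4:**
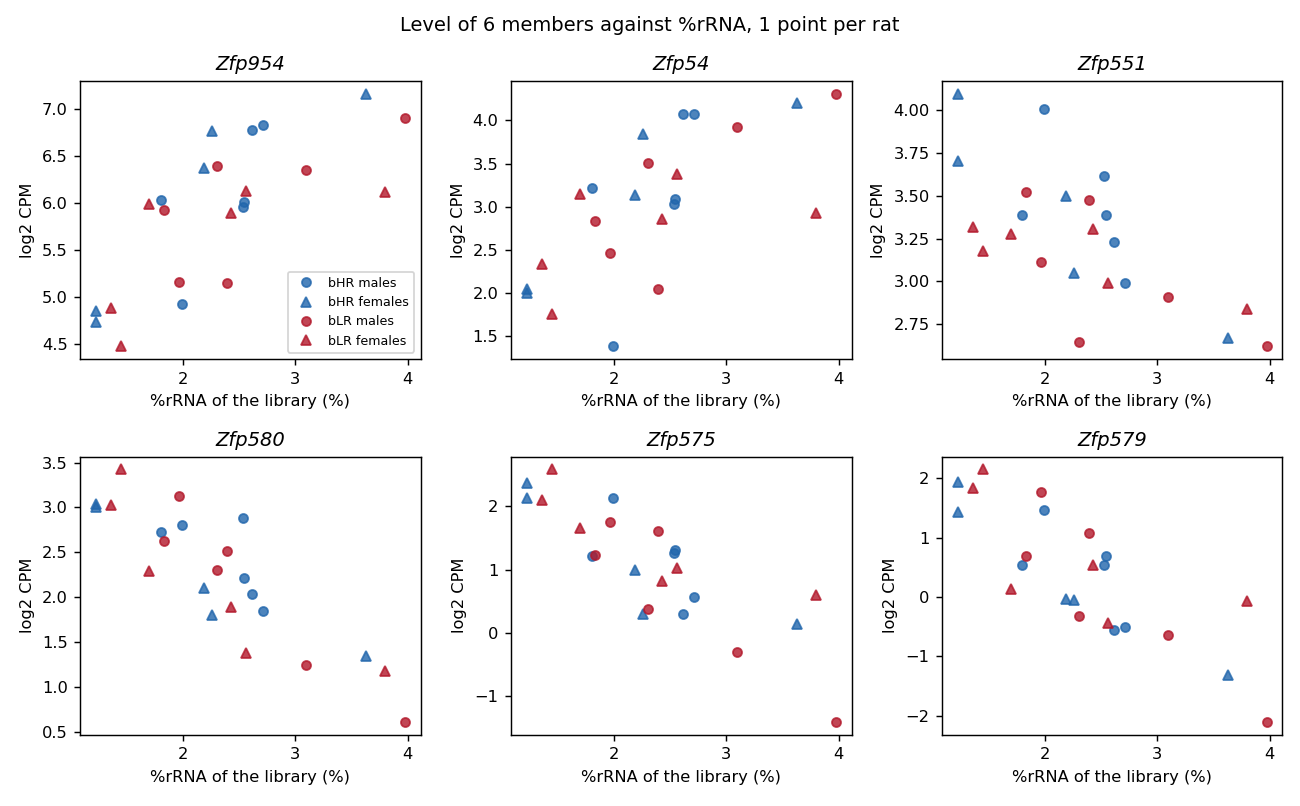
log2 CPM (vertical axis) of 6 members against the %rRNA of each library (horizontal axis, %), 1 point per rat (circles males, triangles females; blue bHR, red bLR). Zfp954 and Zfp54 climb and Zfp551, Zfp580, Zfp575 and Zfp579 descend in both lines, with the 4 leftmost points all females.

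Males and females analysed apart gave slopes of the same sign for all 15 rising (all rising genes 95%) and all 16 falling members (all falling genes 98.5%), which were called on the same rats, with 4 and 13 passing in males and 14 and 15 in females. In males alone 42.5% of members passed (all genes 50.8%), 10% rising (all genes 21.5%) and 32.5% falling (all genes 29.3%). In females alone 75% passed (all genes 74.2%), 35% rising (all genes 35.7%) and 40% falling (all genes 38.5%). For Zfp954 the slope was 0.61 in males (SE 0.11) and 0.81 in females (SE 0.12), and for Zfp579 it was -1.45 (SE 0.31) and -1.22 (SE 0.15). The scaling sets where 0 lies, because TMM factors themselves went with %rRNA. With library size alone the median slope over all genes was -0.32, 2 members rose (Zfp954 and Zfp54) and 26 fell, whereas relative to that median all 15 stood above and all 16 below. With library size alone 80.2% of all genes passed (15.5% rising and 64.7% falling), as did 70% of members. Of the 15, 9 then had slopes below 0: Zfp324 (-0.05), Zfp418 (-0.11), Zfp772 (-0.03), Zfp773-ps1 (-0.09), Zfp787 (-0.19), Zfp61 (-0.09), Zfp780b-ps1 (-0.14), Zfp420 (-0.01) and Zfp17 (-0.03), among which Zfp787 and Zfp780b-ps1 passed as falling (edgeR FDR = 0.00344 and 0.0694). For these 9 the rise is one against the other genes of the library.

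Rising and falling members also differed in their relation to %intergenic, a comparison made after the values were seen. Of the 15 rising with %rRNA, 14 fell with %intergenic (all genes 33.4%), and of the 16 falling, 13 had a slope above 0 for it and 11 rose (all genes 35.4%). The share with opposite signs was 82.9% of 5010 rising genes and 80.5% of 5564 falling genes in the whole table, close to the members' pattern. Slc17a7, the excitatory neuron marker, fell with %rRNA as well (slope -0.81, edgeR FDR = 1.37e-07) and did not differ beyond its error by lineage (Log2FC 0.03, SE 0.15), and Folr1 had a slope of 0.37 (edgeR FDR = 0.452). The part of cell composition in the members' slopes was not tested.

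Median GC content was higher in promoters of the falling members than in those of the rising ones, a difference that was not tested. The median was 59.3% (45.0 to 68.0%, n = 15) for falling members and 51.2% (42.0 to 61.3%, n = 14) for rising ones, with CpG ratios of 0.788 and 0.524. TGCGCA stood in 7 of 15 falling and 3 of 14 rising, ACTACA in 6 and 4, CCGGAAG in 5 and 2, GCATGCGC in 3 and 2, and CACGTG in 1 and 0. GGGCGG stood in 6 of 15 falling and 7 of 14 rising, CCAAT in 5 and 5, and TGACGT in 0 and 1. The ranges overlapped, neighbours share sequence, and the same split over all genes was not analysed here. Among the rising are Zfp51 and Zfp17, whose matched RefSeq entries carry other names.

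**Figure D5:**
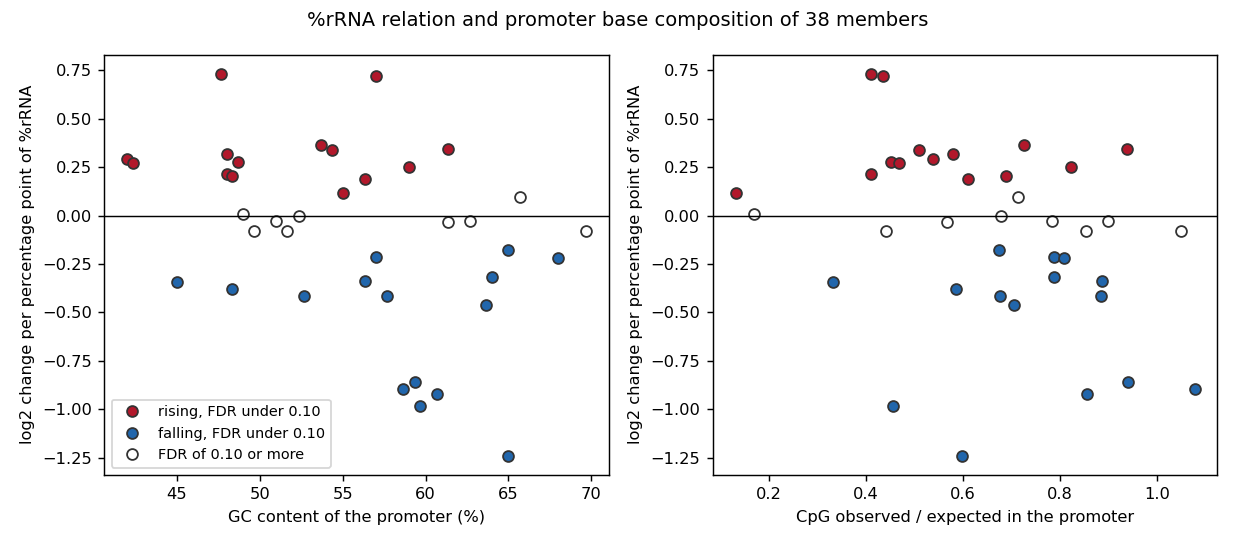
Change in log2 level per percentage point of %rRNA (vertical axis) against GC content (left, %) and observed to expected CpG (right) of the 300-base RefSeq promoter, 1 point for each of 38 members. The falling members with slopes under -0.8 all sit at 58.7 to 65.0% GC, and the rising members spread from 42.0 to 61.3%.

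Of the 8 KRAB corepressor genes listed for comparison, Trim28, on the same chromosome, was looked at and the other 7 were not analysed here. Trim28 ran from 22.1 to 78.3 CPM in bHRs (median 42.8) and from 14.4 to 83.8 CPM in bLRs (median 41.4), and its Log2FC was -0.09 (SE 0.12, edgeR FDR = 0.863), an interval of 2 SE from -0.32 to 0.15. Trim28 fell with %rRNA, from 68.1 to 83.8 CPM in the 4 lowest rats to 14.4 to 24.0 CPM in the 4 highest (slope -0.80, SE 0.08).

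Other zinc finger genes of the same stretch, 16 in all, gave 0 lineage calls by edgeR (all genes 1.34%), 1 at an unadjusted p under 0.05 (6.25%, all genes 9.96%), and a median Log2FC of -0.04. DESeq2 and limma-voom counts for this list were not computed. With %rRNA 5 of the 16 rose (31.2%, all genes 36.2%) and 5 fell (31.2%, all genes 40.2%), 62.5% in all (all genes 76.4%). The 33 remaining genes lying within the clusters had a median Log2FC of 0.03, 16 of them below 0. At an unadjusted p under 0.05 stood 4 of them (12.1%, all genes 9.96%), and 1 was called (3.03%, all genes 1.34%). The call, LOC102548695 in cluster 5, named here because it was the only one, was higher in bHRs (Log2FC -0.34, SE 0.09, edgeR FDR = 0.0996). It stood at the threshold like that of Zfp551, and its stability was not examined. The widest difference was that of AABR07002247.1 (Log2FC -0.57, SE 0.20, edgeR FDR = 0.256). With %rRNA 10 of the 33 rose (30.3%, all genes 36.2%) and 15 fell (45.5%, all genes 40.2%), 75.8% in all (all genes 76.4%). The share below 0 by lineage was thus 72.5% for the members, 56.2% for the other zinc finger genes and 48.5% for their neighbours, and the difference between these shares was not tested.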

How the data were processed

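Hippocampal RNA from 24 rats was sequenced as stranded, paired-end poly-A libraries. The authors aligned reads to Rnor6 with STAR 2.7.3a, kept unique hits and made the deposited gene counts with Subread 2.0.0 on the sense strand (Ensembl annotation); counts are raw. Here, counts of the 23 rats with an RNA integrity number above 8 were filtered (at least 1 CPM in at least 6 rats), TMM-normalized and fitted with edgeR 4.0.16 (R 4.3.3) using terms for lineage, sex, %rRNA and %intergenic; FDR is Benjamini-Hochberg over all 13838 genes, threshold 0.10. The SE is the absolute Log2FC over the square root of F. The interaction model held lineage, sex, their product and %rRNA. Correlations used log2 CPM (prior count 2) with means of each line and sex removed and 100000 permutations within those groups. Alternatives were DESeq2 1.42.0, limma-voom 3.58.1, other normalizations, filters, covariates, each sex alone, family as a random block and each rat left out. With 16824899 to 28443049 counts per rat, 3 counts equal 0.105 to 0.178 CPM; counting error was not treated apart from the rats' spread. The edgeR p-values treat the 23 rats as independent, although most share a family code with another rat of their line. Family codes are shared by the sexes within a line and never across lines, so family could enter only as a random effect (consensus correlation 0.00852). That correlation is a single value for all genes and cannot show a family effect of one gene such as Zfp551. No fit left out both rats of a family. Members and lists were chosen with earlier results of these data known. Genes named by rule were the member passing for lineage, the 6 with the lowest p for %rRNA, the 10 with the lowest p, the 3 largest and 3 smallest Log2FC for lineage, the most abundant member of each cluster, and Trim28; other members given values were named after these were seen. Gene symbols and Rnor6 positions came from the study's annotation of chromosome 1 and promoters from RefSeq (GRCr8), and the builds were not combined.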

Additional observations from a re-analysis of the deposited data

Results flagged for a closer look

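In the bHR males, Zfp418 of the H11 rat stood at 2.23 CPM, apart from the other 5 males at 3.14 to 3.44 CPM, its gap to the nearest taking 0.755 of the whole range of the group. This was the single rat standing apart among 92 groups of 5 or 6 rats examined for the 23 named members, and chance marks about 1 such group in 20.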

How the results depend on the processing

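Depth sets a floor of 0.105 to 0.178 CPM (3 counts) under each rat's level. The 1 lineage call became 0 with library size alone, a filter of 1 read, no filter, all 24 rats, no technical covariates, %rRNA as the only technical covariate, RNA concentration in place of %rRNA, males alone or females alone, and ranged from 0 to 1 as each rat was left out. With family as a random replicate block in limma-voom the call remained that of Zfp551 and the median Log2FC of the members was -0.06, and the block changed the lineage, sex or %rRNA call of 0 of the 40 members. The block used a single correlation for all genes, so a family effect of Zfp551 itself was not tested. No pairing of rats across lines was possible because the lines share no family. For %rRNA, 17 members (42.5%, all genes 50.8%) passed in males alone, 4 of them rising (10%, all genes 21.5%), and with library size alone 2 rose (5%, all genes 15.5%) and 26 fell (65%, all genes 64.7%). The counts were 29 to 31, 12 to 15 rising and 16 to 17 falling as each rat was left out, and the members' median Log2FC was -0.08 to -0.04, against -0.11 with no technical covariates and -0.09 when %rRNA alone was kept. The causes were not tested, save that fewer rats entered the fits by sex.

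Named members that did not pass changed the sign of their Log2FC by lineage in these fits. In females alone it was 0.00471 for Zfp17, -0.0235 for Zfp180, 0.217 for Zfp260, 0.0769 for Zfp329, -0.108 for Zfp418, -0.406 for Zfp536, 0.0655 for Zfp575, -0.325 for Zfp579, -0.0728 for Zfp667 and 0.0311 for Zfp954. In males alone it was -0.0388 for Zfp667. With all 24 rats it was -0.0705 for Zfp180, 0.0123 for Zfp260, -0.00209 for Zfp418, 0.0276 for Zfp507, -0.0965 for Zfp579 and -0.00422 for Zfp667. Under DESeq2 it was -0.00967 for Zfp418, -0.0108 for Zfp579 and -0.00215 for Zfp667. With RLE size factors it was -0.00562 for Zfp418, -0.00845 for Zfp579 and -0.000589 for Zfp667. With upper quartile normalization it was -0.00370 for Zfp418 and -0.0100 for Zfp579. With library size alone it was -0.00387 for Zfp579. With a filter of 1 read it was -0.00306 for Zfp579. With no filter it was -0.000346 for Zfp418 and -0.00638 for Zfp579. Without technical covariates it was 0.0699 for Zfp507 and -0.223 for Zfp54. With %rRNA as the only technical covariate it was 0.0820 for Zfp507, -0.288 for Zfp54 and 0.0363 for Zfp575. With RNA concentration in place of %rRNA it was 0.0156 for Zfp444, 0.0443 for Zfp575 and 0.102 for Zfp580. As each rat was left out, Zfp17 ran from -0.111 to 0.0259, Zfp180 ran from -0.0850 to 0.115, Zfp260 ran from -0.0798 to 0.145, Zfp418 ran from -0.0500 to 0.0455, Zfp507 ran from -0.109 to 0.0184, Zfp579 ran from -0.302 to 0.0961, Zfp667 ran from -0.0766 to 0.0435 and Zfp954 ran from -0.161 to 0.00883.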
